A study of Homo sapiens with 6 samples.

Results

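The transcripts of oxidative phosphorylation were examined in MDA-MB-468-PR and MDA-MB-468 cells. Members were chosen by gene symbol: the nuclear subunits of complexes I to IV and of ATP synthase (complex V), and the protein-coding genes of mitochondrial DNA. Assembly factors, pseudogenes and readthrough genes were kept apart. The rule found 101 members among the 28395 gene IDs of the count table, 88 of them nuclear and 13 mitochondrially encoded. The rule reads symbols and no measured values, and it was proposed with earlier results of these data known. A filter on low counts left 94 members for testing, 81 nuclear and all 13 mitochondrially encoded ones.

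Resistant samples were MDA-MB-468-PR, a line made in-house by culturing MDA-MB-468 in 3 to 4.5 nM paclitaxel, a microtubule-stabilising drug, over 2 months. Control samples were the parental MDA-MB-468 line, an established human triple-negative breast cancer line. There were 3 libraries of each, and the labels give all 6 as untreated at harvest. The resistant samples all come from this single derivative, and any other change that its culture brought cannot be told apart from an effect of paclitaxel. Resistant replicates 2 and 3 and control replicates 2 and 3 belong to a 2021 batch, and resistant replicate 1 and control replicate 1 to a 2020 batch.

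Oxidative phosphorylation couples the oxidation of NADH and succinate to the synthesis of ATP. Complex I (NADH dehydrogenase) and complex II (succinate dehydrogenase) pass electrons to ubiquinone, complex III passes them to cytochrome c, and complex IV (cytochrome c oxidase) passes them to oxygen. Complexes I, III and IV pump protons across the inner mitochondrial membrane, and complex V uses their return to make ATP. All complexes except complex II combine subunits translated in the cytosol with subunits encoded and translated inside the mitochondrion, so 2 genomes supply one set of machines. Mitochondrial DNA is transcribed as long precursors that are cut into separate mRNAs, mostly at the transfer RNAs between them. Tumour lines often use glycolysis as well as respiration for ATP.

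Total counts were 37889818 to 93680129 in resistant and 41343499 to 66475627 in control libraries. Levels are given in CPM, counts scaled to library size by the TMM method. A gene with 0 counts may have had up to 3, which came to between 0.0311 and 0.0808 CPM depending on the library and covers counting error only. EPCAM, an epithelial adhesion molecule, lay between 367 and 653 CPM in resistant and between 429 and 663 CPM in control libraries. Of the 6 epithelial markers listed, 1 was called higher and 0 lower in resistant cells by the line test described below. Of 3 genes listed as low or absent in triple-negative cells, PGR, the progesterone receptor gene, had 0 counts throughout. The other 2, ESR1 and ERBB2, had enough counts to be tested, and 0 were called between the lines. The markers PTPRC of leukocytes, ALB of hepatocytes, CD3E of T cells and DCN of fibroblasts did not exceed 0.180 CPM, with PECAM1 of endothelium between 0.218 and 0.769 CPM. Among the other markers on the list of foreign cell types, CD14 lay between 6.51 and 18.7 CPM and COL1A1 between 22.4 and 30.3 CPM over the 6 libraries, and neither separated the lines. The transcripts were enriched with exome capture probes, so levels compared between genes also carry the efficiency of capture.

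The sequences of 2 mitochondrial reading frames are shown because their messages overlap a neighbouring frame, so that reads at the overlap belong to both. They come from GENCODE 29 transcripts of GRCh38, and capitals mark the shared bases. In MT-ATP8 (chrM:8366-8572) the last 46 bases, 8527 to 8572, are also the start of MT-ATP6. In MT-ND4L (chrM:10470-10766) the last 7 bases, 10760 to 10766, are also the start of MT-ND4. Reads over those bases were not assigned here, and the authors' treatment of them is not given in the sources used here.
MT-ATP8: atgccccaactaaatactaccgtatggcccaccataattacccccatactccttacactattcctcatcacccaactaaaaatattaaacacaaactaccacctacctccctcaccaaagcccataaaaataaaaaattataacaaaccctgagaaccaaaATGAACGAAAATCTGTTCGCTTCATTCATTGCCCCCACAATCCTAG
MT-ND4L: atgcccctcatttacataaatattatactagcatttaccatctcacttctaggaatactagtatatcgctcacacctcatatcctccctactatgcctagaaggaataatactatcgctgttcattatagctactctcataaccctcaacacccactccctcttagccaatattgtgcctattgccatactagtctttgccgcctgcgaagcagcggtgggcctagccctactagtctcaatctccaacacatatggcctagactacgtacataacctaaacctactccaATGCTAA

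Relative to their size, the mitochondrial mRNA counts varied far more between libraries than the nuclear ones. The 13 mitochondrial mRNAs together took 0.0573%, 0.0101% and 0.00791% of all counts in resistant replicates 1, 2 and 3, against 0.0616%, 0.00459% and 0.0114% in control replicates 1, 2 and 3. Both lines were high in the replicate of 2020 and low in the replicates of 2021, and their ranges overlapped. The mean share was 0.0251% ± 0.0279 in resistant and 0.0259% ± 0.0311 in control cells (SD, n = 3 each). The 88 nuclear members took 0.925%, 0.892% and 0.778% of counts in resistant replicates 1, 2 and 3, against 0.927%, 0.925% and 0.931% in control replicates 1, 2 and 3. Their mean share was 0.865% ± 0.0772 in resistant and 0.928% ± 0.00293 in control cells (SD, n = 3 each), with the lowest value in resistant replicate 3. Resistant replicate 1 (0.92498%) and control replicate 2 (0.92527%) were nearly equal, so the shares barely separated the lines. After TMM scaling the nuclear sums overlapped, with 9437 CPM in resistant replicate 1 against 9129 CPM in control replicate 3. In bulk RNA, fewer cells of a kind and less RNA per cell cannot be told apart.

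**Figure D1:**
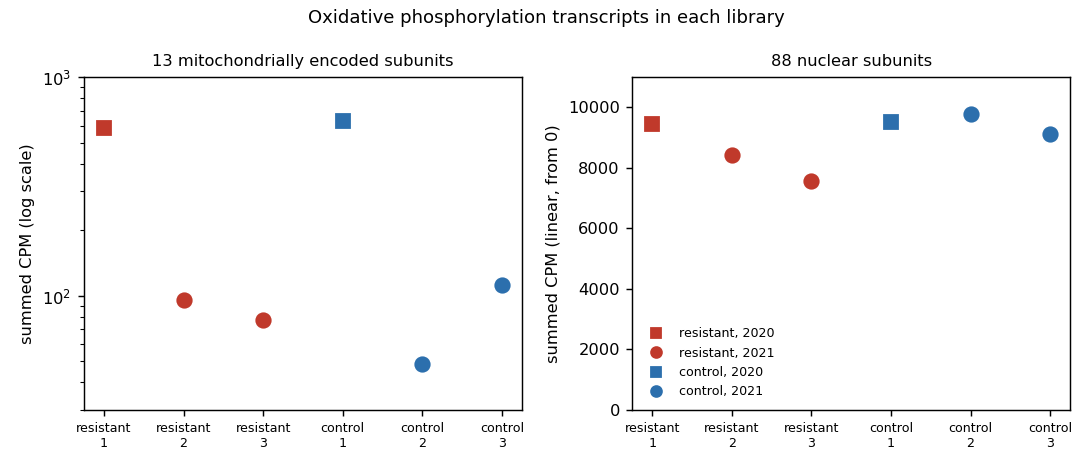
Summed CPM of the 13 mitochondrially encoded mRNAs on a log scale (left) and of the 88 nuclear members on a linear scale from 0 (right) in each library. Red is resistant and blue is control, squares are the 2020 and circles the 2021 batch. The mitochondrial sum reaches 584 CPM in resistant replicate 1 and 633 CPM in control replicate 1 and lies between 48.5 and 112 CPM in the 2021 libraries, while the nuclear sum stays between 7566 and 9785 CPM.

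The ratio of nuclear to mitochondrial counts followed the batch. It was 16.1, 88.5 and 98.4 in resistant replicates 1, 2 and 3, against 15.0, 202 and 81.8 in control replicates 1, 2 and 3. Within 2021 the extremes were both controls, and the resistant libraries lay between them. These are ratios of counts after exome capture. How well the probes capture mitochondrial mRNAs was not tested, so the ratios do not give relative transcript amounts in the cells.

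The first comparison asked whether the lines differ in these transcripts. A gene was called at an adjusted p under 0.05, by edgeR's quasi-likelihood test with batch as a term and Benjamini-Hochberg adjustment over 13950 genes. Of all genes tested 11.7% were called in either direction, 6.23% higher and 5.48% lower in resistant cells. No nuclear member was higher in resistant cells, and 4 of 81 were lower, which is 4.94% and near the background of 5.48%. These were NDUFB11, NDUFC1 and NDUFC2 of complex I and COX8A of complex IV. At an unadjusted p under 0.05 there were 19 lower (23.5%) and 0 higher nuclear members, against 12.7% lower and 13.6% higher among all genes. DESeq2 and limma voom likewise called 0 higher, with 5 and 4 lower.

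Most nuclear members had small differences below 0, with members of both signs in every complex. The fitted log2 difference was below 0 for 71 of the 81 tested nuclear members, or 87.7%, against 50.6% of all genes tested. The median over the nuclear members was -0.17, with quartiles at -0.25 and -0.07, against -0.004 over all genes. By complex the nuclear median was -0.20 for I, -0.15 for II, -0.11 for III, -0.19 for IV and -0.16 for V, and 32 of 34, 3 of 4, 7 of 10, 13 of 14 and 16 of 19 members lay below 0. For 21 members, or 25.9%, every resistant library lay below every control library, against 10.2% of all genes. For 0 members every resistant library lay above every control library, against 10.7% of all genes. Leaving out a library makes separation easier for every gene. Without resistant replicate 1, 2 or 3 the count of members below was 42, 26 and 21. These are 51.9%, 32.1% and 25.9% of the members, against 17.8%, 12.8% and 12.7% of all genes. Without control replicate 1, 2 or 3 the count was 32, 22 and 25. These are 39.5%, 27.2% and 30.9% of the members, against 20.2%, 13.8% and 12.9% of all genes.

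The nuclear median lay nearer to 0 between the 2020 libraries than among the 2021 libraries. The 2020 value rests on resistant replicate 1 and control replicate 1 alone. For the same reason the interaction test below had low power, so a difference between batches was not established. Between the 2020 libraries the nuclear median was -0.02, with 46 of 81 members below 0 and medians of -0.03 for complex I, 0.06 for II, 0.06 for III, -0.05 for IV and 0.02 for V. Among the 2021 libraries it was -0.25, with 72 of 81 below 0 and medians of -0.28 for I, -0.26 for II, -0.20 for III, -0.24 for IV and -0.24 for V. The median log2 distance from the mean of the controls was -0.05, -0.15 and -0.33 in resistant replicates 1, 2 and 3, against -0.02, 0.06 and -0.04 in control replicates 1, 2 and 3. Resistant replicate 3 thus lay farthest, and without it the fitted median was -0.12. No member passed edgeR's test of the line-by-batch interaction (smallest adjusted p = 0.999925), which called 0% of all genes, and 0 of the members reached an unadjusted p under 0.05. DESeq2 and limma voom also called 0 members for the interaction.

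**Figure D2:**
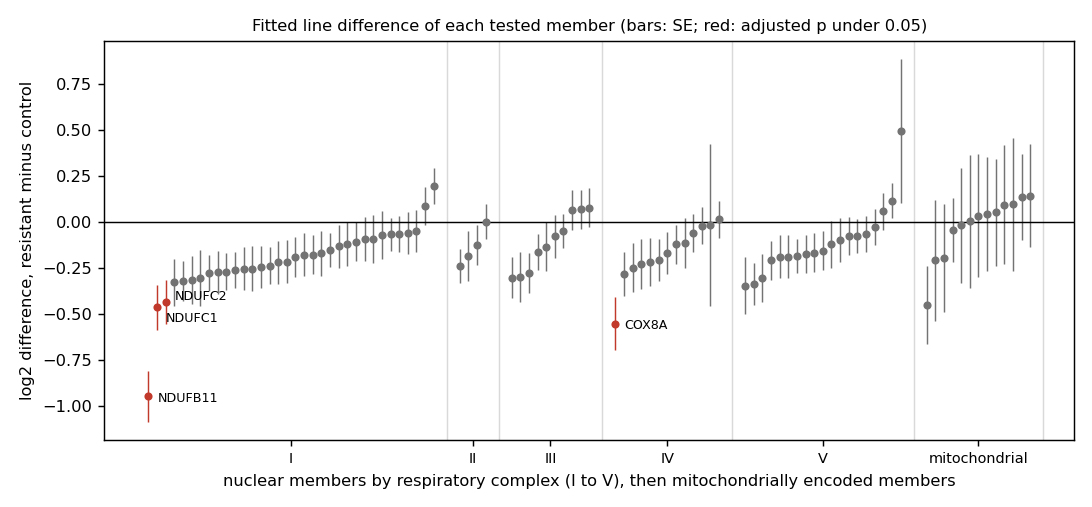
Fitted log2 difference, resistant minus control, of each tested member with its SE, nuclear members by complex and then the mitochondrially encoded members, sorted within each block. Red points passed an adjusted p of 0.05. COX7B2, at -2.90, lies off the scale and is not drawn. Most nuclear points lie a little below 0 and NDUFB11 stands apart at -0.95, while the mitochondrial points straddle 0 with long bars.

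NDUFB11, a membrane-arm subunit of complex I encoded on chromosome X (chrX:47142216-47145491, GRCh38.p14), had the largest log2 difference of the 4 called members. Its level was 65.6, 68.4 and 54.3 CPM in resistant replicates 1, 2 and 3, against 105, 142 and 117 CPM in control replicates 1, 2 and 3. The groups did not overlap, in 2020 or in 2021. The log2 difference was -0.95 ± 0.14 (SE; adjusted p = 0.0041, edgeR; lower in resistant cells in both batches). The difference was called under every alternative tried.

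COX8A, a small subunit of complex IV, had 42.5, 45.9 and 45.5 CPM in resistant replicates 1, 2 and 3, against 49.6, 86.1 and 64.0 CPM in control replicates 1, 2 and 3. The groups did not overlap, the resistant values were close together, and the control of 2020 lay nearest to them. The log2 difference was -0.55 ± 0.14 (SE; adjusted p = 0.0414, edgeR). It was not called without resistant replicate 2 (adjusted p = 0.160), without resistant replicate 3 (0.195) or without the batch term (0.201).

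NDUFC1, an accessory subunit of complex I, had 19.0, 18.3 and 18.6 CPM in resistant replicates 1, 2 and 3, against 23.1, 29.9 and 24.1 CPM in control replicates 1, 2 and 3. The groups did not overlap, and the resistant values differed among themselves by less than 1 CPM. The log2 difference was -0.46 ± 0.12 (SE; adjusted p = 0.0432, edgeR). Blocking on the replicate number gave an adjusted p of 0.0588, and without resistant replicate 1, 2 or 3 or control replicate 1 it was 0.0787, 0.179, 0.181 and 0.0687. It was also not called with upper quartile scaling (0.0519), with no batch term (0.168) or in the 2021 batch alone (0.0752).

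NDUFC2, the partner of NDUFC1 in the membrane arm, had 60.7, 37.9 and 39.3 CPM in resistant replicates 1, 2 and 3, against 67.3, 62.3 and 52.8 CPM in control replicates 1, 2 and 3. Here the groups overlapped over both batches, and the 2 resistant libraries of 2021 were the low ones. The log2 difference was -0.43 ± 0.12 (SE; adjusted p = 0.0497, edgeR), and 0.0708 with the replicate block. It was not called without resistant replicate 2 (0.216), resistant replicate 3 (0.209) or control replicate 2 (0.0698). Upper quartile scaling (0.0594), a minimum mean of 1 CPM (0.0551), limma voom (0.0568) and no batch term (0.429) also ended the call.

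**Figure D3:**
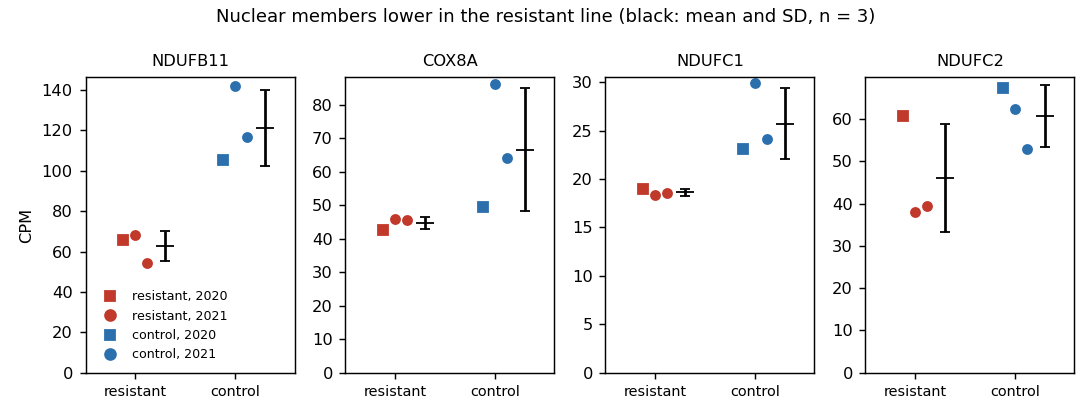
CPM of the 4 nuclear members called for the line difference in each library, with axes from 0. Red is resistant and blue is control, squares are 2020 and circles 2021 libraries, and black marks show the mean and SD of 3. NDUFB11 averages 62.7 CPM in resistant and 121 CPM in control cells without overlap, whereas the NDUFC2 groups overlap.

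The genomic surroundings of these 4 differed. Among the 20 nearest tested genes around NDUFB11, 13 were called lower and 0 higher in resistant cells, with a median log2 difference of -0.60. For COX8A the 20 neighbours gave 4 lower, 0 higher and a median of -0.27. For NDUFC2 it was 1 lower, 0 higher and -0.18. For NDUFC1 it was 0 lower, 2 higher and 0.05. Genes of chromosome X were called lower in 36.7% of 449 cases and genes of chromosome 6 in 35.1% of 658, against 2.87% of 12828 on the other nuclear chromosomes. Only 4 tested nuclear members lie there, COX7A2 on chromosome 6 and NDUFA1, NDUFB11 and COX7B on X. The other 77 kept a median of -0.17, with 67 below 0 and 3 called lower. The part of its chromosomal surroundings in the call of NDUFB11 was not tested.

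The promoters of the 2 called members with the largest log2 differences are shown to set one with a motif match beside one without. The sequences run from 250 bases before to 50 bases after the start in the RefSeq promoter table (GRCh38.p14), and capitals mark a motif match. For NDUFB11 that window lies inside the gene span given above, which begins farther upstream, so it is not the region before the outermost start. Motifs were CCGGAAG, the core bound by ETS factors such as GABPA, and AAGATGGC of YY1, searched on both strands. In COX8A (chr11:63974370-63974669, plus strand) the ETS letters occur once, on the opposite strand, and in NDUFB11 (chrX:47144653-47144952, minus strand) neither motif occurs.
NDUFB11 promoter: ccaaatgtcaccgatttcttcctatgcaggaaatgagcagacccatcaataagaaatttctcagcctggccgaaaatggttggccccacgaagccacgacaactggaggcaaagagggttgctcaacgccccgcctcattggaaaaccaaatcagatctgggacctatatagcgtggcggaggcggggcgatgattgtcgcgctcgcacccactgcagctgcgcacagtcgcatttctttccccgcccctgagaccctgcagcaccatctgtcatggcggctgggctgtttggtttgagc
COX8A promoter: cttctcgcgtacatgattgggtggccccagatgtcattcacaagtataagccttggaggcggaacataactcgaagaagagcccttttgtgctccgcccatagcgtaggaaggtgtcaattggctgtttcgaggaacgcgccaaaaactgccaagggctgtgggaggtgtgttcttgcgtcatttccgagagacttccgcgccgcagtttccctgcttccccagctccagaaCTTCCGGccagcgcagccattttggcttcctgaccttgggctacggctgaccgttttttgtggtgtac
Among the 71 nuclear members with a promoter entry, the ETS letters occurred in 21 (29.6%) and the YY1 letters in 12 (16.9%). Of 15843 protein-coding genes with an entry, 16.5% and 4.66% had them. A gene was counted if any of its promoter entries held the letters. A match describes the letters of the window and is no evidence of binding.

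Tissue-restricted forms of complex IV subunits were at or near 0 while their widespread partners were abundant. COX4I1, the common form of subunit 4, had 479, 439 and 350 CPM in resistant replicates 1, 2 and 3, against 485, 492 and 488 CPM in control replicates 1, 2 and 3, and COX4I2, known from lung and from responses to low oxygen, had 0 counts throughout. The log2 difference of COX4I1 was -0.22 ± 0.13 (SE; adjusted p = 0.337, edgeR). COX6A1 lay between 44.9 and 55.6 CPM in resistant and between 53.2 and 63.8 CPM in control libraries, and its heart and muscle form COX6A2 had 0 to 2 counts. COX6B1 lay between 153 and 172 CPM in resistant and between 178 and 225 CPM in control libraries (log2 difference -0.28 ± 0.12, SE; adjusted p = 0.174), and the testis form COX6B2 had at most 1 count. COX7A2 lay between 115 and 182 CPM in resistant and between 167 and 207 CPM in control libraries, COX7A2L between 43.4 and 68.3 CPM in resistant and between 59.9 and 73.0 CPM in control libraries, and the muscle form COX7A1 had at most 1 count. COX8C, a testis form, had 0 counts.

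COX7B2, a testis form of subunit 7B, was the exception with counts in controls. It had 0, 12 and 4 counts in resistant replicates 1, 2 and 3, against 38, 42 and 18 counts in control replicates 1, 2 and 3. The groups did not overlap, at levels below 1 CPM. The log2 difference was -2.90 ± 0.81 (SE; adjusted p = 0.0608, edgeR), so it was not called, while it passed with DESeq2 (adjusted p = 0.00923), limma voom (0.0478), the replicate block (0.0382), without resistant replicate 2 (0.0229) and without control replicate 3 (0.0099). COX7B itself lay between 108 and 172 CPM in resistant and between 114 and 179 CPM in control libraries.

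Among the other pairs, NDUFA4, a complex IV subunit first described in complex I, lay between 112 and 143 CPM in resistant and between 116 and 134 CPM in control libraries. NDUFA4L2, known as a gene induced by low oxygen, lay between 0.353 and 0.735 CPM in resistant and between 0.304 and 0.782 CPM in control libraries. The 3 genes for the ring subunit of ATP synthase encode the same mature protein. ATP5MC3 was the highest of them with 111 to 157 CPM in resistant and 163 to 173 CPM in control libraries, ATP5MC2 had 58.8 to 67.4 CPM in resistant and 72.9 to 92.2 CPM in control libraries, and ATP5MC1 had 32.0 to 36.9 CPM in resistant and 31.6 to 42.3 CPM in control libraries. All resistant values of ATP5MC2 and ATP5MC3 lay below all control values (log2 differences -0.34 and -0.30, adjusted p = 0.101 and 0.173, edgeR). ATP5MGL, a near copy of ATP5MG, had 4 to 22 counts.

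UQCRH, the hinge protein of complex III, and its intronless copy UQCRHL are shown because their coding sequences differ at so few bases that reads can fit both. Of 276 coding bases 4 differ, G158A, G167A, G231A and G233A (the UQCRH base first, positions from 1 at the start codon, GENCODE 29), an identity of 98.6%. Capitals mark those bases.
UQCRH: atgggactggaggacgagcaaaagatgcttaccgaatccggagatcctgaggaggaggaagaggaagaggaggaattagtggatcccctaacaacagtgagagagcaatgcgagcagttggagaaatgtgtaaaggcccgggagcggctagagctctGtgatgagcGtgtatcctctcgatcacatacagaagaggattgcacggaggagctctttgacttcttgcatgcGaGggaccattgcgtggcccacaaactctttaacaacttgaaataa
UQCRHL: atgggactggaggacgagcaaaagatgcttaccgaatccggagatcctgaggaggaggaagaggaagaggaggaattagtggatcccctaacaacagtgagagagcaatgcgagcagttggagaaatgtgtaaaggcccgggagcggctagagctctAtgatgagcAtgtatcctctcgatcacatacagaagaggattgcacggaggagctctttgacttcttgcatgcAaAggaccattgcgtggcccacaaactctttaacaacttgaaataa
UQCRH had 287, 221 and 190 CPM in resistant replicates 1, 2 and 3, against 263, 196 and 200 CPM in control replicates 1, 2 and 3. The counts of UQCRHL were 7.72% to 8.16% of those of UQCRH in resistant and 7.85% to 8.32% in control libraries. Both genes had a line difference near 0 (0.08 ± 0.11 for UQCRH and 0.07 ± 0.11 for UQCRHL, log2, SE). Values of UQCRHL are uncertain for this reason.

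With the transcript lengths used, levels per length put a catalytic subunit of ATP synthase and a complex IV subunit at the top. Averaged over the 6 libraries and divided by transcript length, the highest member was ATP5F1B, the catalytic beta subunit, with 652 CPM per kb. The lengths are medians over annotated transcripts, 856 bases for ATP5F1B and 716 for COX4I1. Whether they match the transcripts expressed was not tested, and every rank per length here depends on them. Before division ATP5F1A averaged 571 CPM, ATP5F1B 558 CPM and COX4I1 455 CPM. In 2021 ATP5F1B had 648 CPM per kb, against 661 in 2020. COX4I1 had 618 CPM per kb in 2021, against 673 in 2020, so that with these lengths their order differed between batches. COX4I1 led complex IV with 636 CPM per kb, NDUFS5 complex I with 442 CPM per kb, UQCRH complex III with 375 CPM per kb and SDHA, the flavoprotein, complex II with 190 CPM per kb. The lead of SDHA held in 2021, with 189.9 CPM per kb against 116 for SDHC, while in 2020 SDHC had 225 and SDHA 190.0 CPM per kb. The 2020 order rests on the lengths used, 460 bases for SDHC and 2009.5 for SDHA. Before division SDHA averaged 382 and SDHC 104 CPM in 2020. NDUFS4, an accessory subunit needed for a stable complex I, had the highest fitted line difference of complex I at 0.20 ± 0.10 (log2, SE; adjusted p = 0.252, edgeR), and ATP5F1D, the delta subunit, the lowest of complex V at -0.35 ± 0.16 (log2, SE; adjusted p = 0.198, edgeR). UQCRQ was the lowest of complex III at -0.30 ± 0.11 (log2, SE; adjusted p = 0.119, edgeR).

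The complex I members NDUFA3 and NDUFA6 could not be assessed. NDUFA6 had 0 counts in all libraries and NDUFA3 had 0 to 2. Close neighbours in the genome were also near 0, with 0 counts for SMDT1 beside NDUFA6, and 0 to 1 for TFPT, 1 to 4 for TSEN34 and 2 to 15 for RPS9 beside NDUFA3. CNOT3, in the same stretch as RPS9, had 306 to 1278 counts. RPS9 encodes a ribosomal protein that every growing cell makes, so values near 0 in this stretch are not read as absence of the transcript. The cause was not tested.

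The mitochondrial mRNAs were not called between the lines. Their fitted log2 differences ran from -0.45 for MT-ND3 to 0.14 for MT-ND4L, with a median of 0.04, 5 below and 8 above 0. The adjusted p (edgeR) lay between 0.222 and 0.997, 0 reached an unadjusted p under 0.05, and DESeq2 and limma voom called 0. The 95% intervals of single members reached as low as -0.97 and as high as 0.99, so differences of up to about that size were not resolved. The median was -0.15 in 2020, with 11 of 13 below 0, and 0.27 in 2021, with 3 of 13 below 0. Single libraries decided the sign: the median was -0.26 without control replicate 2, -0.07 without resistant replicate 2 and 0.40 without control replicate 3. Within the 2021 controls, the mitochondrial sum of replicate 3 was 2.30 times that of replicate 2, and 12 of 13 mRNAs were higher in replicate 3, MT-ND3 being the exception.

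Per length, the 3 cytochrome c oxidase mRNAs, the 2 ATP synthase mRNAs and MT-ND4 were at the top of the mitochondrial set, and MT-ND6 was at the bottom. MT-CO3, a core subunit of complex IV, averaged 39.3 CPM per kb over all libraries, with 13.5 in 2021 and 90.9 in 2020. MT-ND6, the only member on the light strand, averaged 2.03 CPM per kb, with 0.474 in 2021 and 5.15 in 2020. MT-ND3 averaged 9.05 CPM per kb and MT-CYB, the cytochrome b of complex III, 19.4.

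The make-up of the mitochondrial set changed less than its amount. MT-ND4, the most counted, took 17.5%, 18.4% and 19.4% of the 13 in resistant replicates 1, 2 and 3, against 16.5%, 17.1% and 18.6% in control replicates 1, 2 and 3. MT-CO1, the catalytic subunit of complex IV, ranged from 14.5% to 16.7% over the 6 libraries and MT-ATP6, part of the proton channel of complex V, between 7.33% and 7.92%. The widest relative range was that of MT-ND3, with a highest share 2.97 times the lowest, and control replicate 2 alone was at 2.25%, against 0.756% to 1.34% elsewhere. MT-CO2 reached 10.8% in the same library, against 6.10% to 7.91% in the others.

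**Figure D4:**
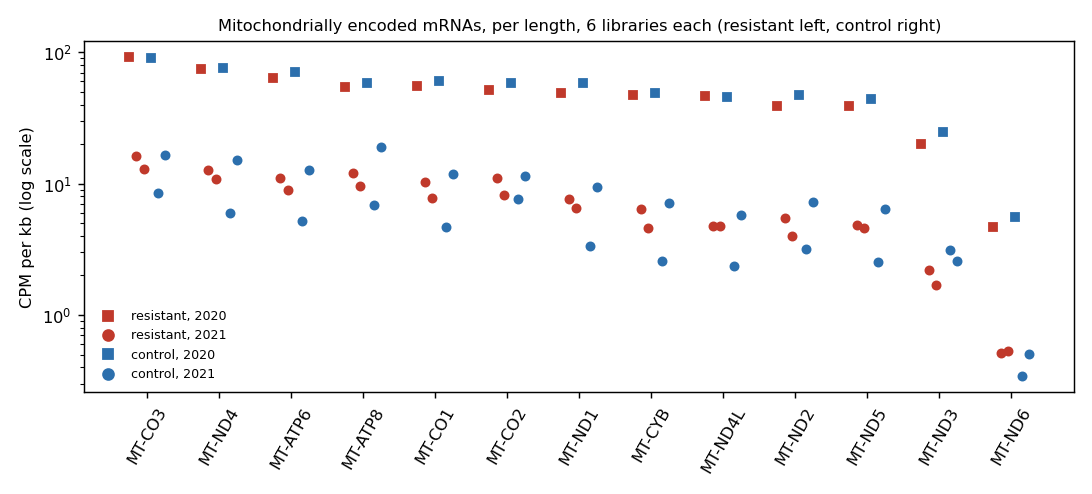
CPM per kb of the 13 mitochondrially encoded mRNAs on a log scale, 6 libraries each with resistant left of control within each gene. Squares are 2020 and circles 2021 libraries. In every gene the squares lie above the circles, red and blue overlap, and MT-ND6 is lowest with a mean of 2.03 CPM per kb.

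The second comparison set the 2021 libraries against the 2020 libraries, with the line as a term. The labels give the batch as a date and nothing of what changed with it. Of all genes 22.9% were called, 11.5% higher and 11.4% lower in 2021. All 13 mitochondrial mRNAs were lower in 2021, by 4.78-fold for MT-ATP8 to 10.7-fold for MT-ND6, with a median log2 difference of -2.98 (adjusted p between 0.00011 and 0.00715, edgeR). For all 13, every 2021 library lay below both 2020 libraries, which held for 21.5% of all genes. MT-ND4 averaged 15.4 ± 5.30 CPM in 2021 (SD, n = 4) and 103 CPM in 2020, whose 2 values were 102 in resistant and 104 in control cells. Without resistant replicate 1 or control replicate 1, which leaves 1 library of 2020, 5 of the 13 were called.

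Of the 2 mitochondrial ribosomal RNAs, the small one, MT-RNR1, had a log2 difference of -2.27 (2021 minus 2020; adjusted p = 0.0001, edgeR), close to that of MT-ATP8. The large one, MT-RNR2, was lower by less than any of the 13 mRNAs, at -0.72 (adjusted p = 0.0176, edgeR). MT-RNR2 had 10.2 and 9.70 times the counts of the 13 mRNAs in the 2021 resistant libraries and 21.1 and 11.4 times in the 2021 controls, against 2.60 and 2.77 times in the 2020 resistant and control libraries. The 22 transfer RNA genes had 31, 7 and 9 counts in all in resistant replicates 1, 2 and 3, and 62, 1 and 14 in control replicates 1, 2 and 3.

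Of the nuclear members 22.2% were called between batches, close to the background, but unequally by direction. Lower in 2021 were 16 (19.8%), against 11.4% of all genes, and higher were 2 (2.47%), against 11.5%. The complex II anchor subunits moved most. SDHD had 59.6 and 55.2 CPM in the 2021 resistant and 70.0 and 71.7 CPM in the 2021 control libraries, against 137 CPM in the 2020 resistant and 148 CPM in the 2020 control library. The difference was -1.16 ± 0.10 (log2, SE; adjusted p = 0.000287, edgeR), the lowest of the nuclear set. SDHC, the other anchor, had 49.7 and 47.3 CPM in the 2021 resistant and 59.2 and 56.8 CPM in the 2021 control libraries, against 109 CPM in the 2020 resistant and 98.4 CPM in the 2020 control library (-0.97 ± 0.11, log2, SE; adjusted p = 0.00142, edgeR). SDHB, the iron-sulphur subunit, was lower by a smaller log2 difference of -0.43, and SDHA, the catalytic one, differed by -0.01 (adjusted p = 0.970, edgeR).

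In the other complexes NDUFS4 (-0.58), NDUFB1 (-0.56), COX7C (-0.57), COX7B (-0.56), UQCRB (-0.45), UQCRH (-0.45), ATP5MJ (-0.37) and ATP5PD (-0.37) were among the 16 called lower. The 2 higher were CYC1, the cytochrome c1 of complex III, at 0.56 ± 0.14 and NDUFA11 of complex I at 0.41 ± 0.13 (log2, SE; adjusted p = 0.027 and 0.046, edgeR). For 27 nuclear members (33.3%) all 2021 libraries lay below both 2020 libraries, against 21.5% of all genes, and for 9 (11.1%) above, against 21.9%. These counts rest on the 2020 libraries: without resistant replicate 1 or control replicate 1, 2 were called lower and 0 higher.

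Batch differences went with base composition. Over the 81 nuclear members the Spearman correlation of the batch log2 difference with the GC content of the transcript was 0.668, and over 13304 genes with a value 0.554. It was 0.140 with length over the members. For the line difference the correlation with GC content was -0.416 over the members and -0.0615 over all genes. These describe genes measured in the same 6 libraries, which are not independent points. The mitochondrial mRNAs, with 39.6% to 47.7% GC, lay far below nuclear members of the same GC content. A part of base composition in either comparison was not tested.

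**Figure D5:**
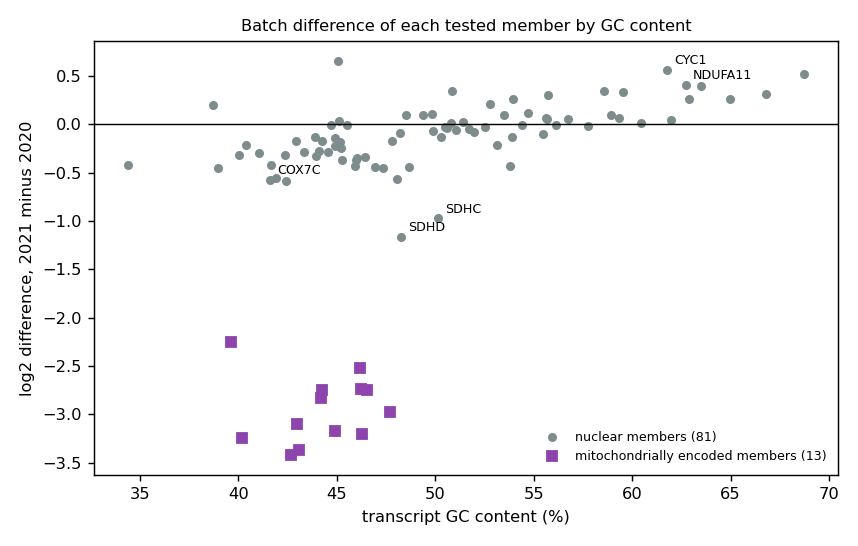
Log2 difference between batches, 2021 minus 2020, of each tested member by the GC content of its transcript in percent. Circles are 81 nuclear and squares 13 mitochondrially encoded members. Nuclear members rise with GC content (Spearman 0.668), SDHD and SDHC lie apart at -1.16 and -0.97, and the mitochondrial members lie between -2.26 and -3.42.

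Genes that build and supply the complexes were described from 6 lists that were chosen with earlier results of these data known. Of their 234 genes 229 were tested, 0 were higher and 19 lower in resistant cells, of which 9 lie on chromosome 6, 3 on chromosome X and 7 elsewhere. The background was 6.23% higher and 5.48% lower.

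Among 55 assembly factors 3 were lower, with a list median of -0.12. UQCC2, an assembly factor of complex III on chromosome 6, had 31.5, 30.5 and 22.7 CPM in resistant replicates 1, 2 and 3, against 53.0, 52.8 and 54.9 CPM in control replicates 1, 2 and 3. The groups were far apart and the log2 difference was -0.93 ± 0.13 (SE; adjusted p = 0.0034, edgeR). COA6, a complex IV assembly factor involved in copper delivery, was lower by -0.48 ± 0.11 (log2, SE; adjusted p = 0.0214, edgeR).

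Of the 77 tested proteins of the mitochondrial ribosome, which translates the 13 mitochondrial messages, 8 (10.4%) were lower and 0 higher, with a median of -0.16. Of these, MRPS18A, MRPL14, MRPL2 and MRPS10 lie on chromosome 6. MRPS18A had 21.2, 29.9 and 24.1 CPM in resistant replicates 1, 2 and 3, against 36.2, 59.3 and 46.3 CPM in control replicates 1, 2 and 3 (-0.90 ± 0.13, log2, SE; adjusted p = 0.0045, edgeR). MRPL14 differed by -0.79 ± 0.12 (log2, SE; adjusted p = 0.0057, edgeR).

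Mitochondrial transcription and replication genes were centred at 0.0001, with 1 of 35 lower. This was HSD17B10, a subunit of mitochondrial RNase P encoded on chromosome X, at -0.85 ± 0.13 (log2, SE; adjusted p = 0.0047, edgeR). TFAM packages mitochondrial DNA and takes part in its transcription. It had 70.4, 65.1 and 67.7 CPM in resistant replicates 1, 2 and 3, against 71.9, 68.2 and 72.3 CPM in control replicates 1, 2 and 3. Its difference was -0.06 ± 0.09 (log2, SE, adjusted p = 0.681, edgeR). POLRMT, the mitochondrial RNA polymerase, differed by -0.15 ± 0.13 and LRPPRC, which stabilises mitochondrial mRNAs, by 0.07 ± 0.11 (log2, SE; adjusted p = 0.502 and 0.741, edgeR). TFB2M, POLG and TWNK were not called either, at -0.03, 0.0001 and 0.15.

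Between batches TFAM differed by -0.06 (adjusted p = 0.668, edgeR), and POLRMT (0.49) and the helicase TWNK (0.64) were higher in 2021 (adjusted p = 0.0415 and 0.0077, edgeR). These values stand beside the lower mitochondrial mRNAs of 2021, and a link was not tested.

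Of 16 tested regulators 1, PPARD on chromosome 6, was lower (-0.52 ± 0.14, log2, SE; adjusted p = 0.045, edgeR). PPARGC1A, a coactivator of mitochondrial genes, was at 0 to 0.210 CPM and too low to test, and its relative PPARGC1B had 9.64 to 15.0 CPM over the 6 libraries. NRF1 differed by -0.17, GABPA by -0.19, ESRRA by -0.30, HIF1A by -0.16 and MYC by -0.07 (log2), none called. Of 22 tested electron carriers and exchangers 2, both in ubiquinone synthesis and on chromosome 6, were lower: COQ3 (-0.57, adjusted p = 0.0111, edgeR) and PDSS2 (-0.41, adjusted p = 0.0346, edgeR). CYCS, cytochrome c, differed by -0.16 ± 0.10 (log2, SE; adjusted p = 0.330, edgeR).

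In the citrate cycle list 4 of 24 (16.7%) were lower, with a median of -0.21. PDHA1, the E1 alpha subunit of pyruvate dehydrogenase encoded on chromosome X, had 117, 106 and 112 CPM in resistant replicates 1, 2 and 3, against 209, 238 and 197 CPM in control replicates 1, 2 and 3. The groups were well apart (-0.95 ± 0.11, log2, SE; adjusted p = 0.0022, edgeR). MPC2, a subunit of the mitochondrial pyruvate carrier on chromosome 1, differed by -0.72 ± 0.10 (log2, SE; adjusted p = 0.0034, edgeR). Its partner MPC1, on chromosome 6, and PDK3, a kinase encoded on chromosome X that inhibits pyruvate dehydrogenase, were the other 2 called lower, at -0.39 and -0.61.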

How the data were processed

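RNA-seq was made from 100 ng of total RNA with exome-probe capture, per the labels' protocols. The authors deposited whole-number counts per Entrez gene, not normalised, for 6 libraries. Trimmomatic 0.38, STAR 2.7.8a, featureCounts of Subread and GRCh38 are named, per the submitters' processing notes. How strand and shared reads were handled, and with which annotation, is not given in the sources used here. Names and positions came from a RefSeq table of GRCh38.p14. Lengths and GC content were medians over the GENCODE 29 transcripts of each gene that are typed as protein-coding, lincRNA or mitochondrial rRNA.

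The members and lists were chosen with earlier results of these data known. Members were matched by RefSeq symbol, and MT- was put before mitochondrial gene names. NDUFA4 and NDUFA4L2 count in complex IV. Genes were filtered with filterByExpr (13950 kept), scaled by TMM, and fitted with edgeR 4.0.16 (robust quasi-likelihood, batch and line as terms, 3 residual degrees of freedom, 2 with the interaction). P-values were adjusted over all genes, and SEs derive from the F statistic. The procedure was tested on simulated data. limma 3.58.1 (voom) and DESeq2 1.42.0 were alternatives. Named genes are every mitochondrial member, the called, extreme, most abundant, X-linked and chromosome 6 members and paralogue pairs, the largest batch differences of each complex, up to 2 lower members of each list, and fixed regulators. NDUFA3, NDUFA6 and their neighbours, SDHB and further called list genes were named after their values were seen. Libraries of one group differed beyond counting noise (chi-square divided by its degrees of freedom, 70.0 to 215.3). Nothing in the labels says that replicates came from separate cultures, so the p-values reflect the spread among libraries, which may be technical.

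The labels number replicates 1 to 3 in both lines. Deviations from the group mean of same-numbered libraries correlated at 0.729, 0.143 and 0.155, all above 0.1. The main fit did not pair samples by number, and a block on the number was fitted only as an alternative. Within 2021, resistant replicate 3 correlated at 0.570 with control replicate 2, and resistant replicate 2 at 0.477 with control replicate 3. These crossed values exceeded those of the same numbers, so pairing by number was not supported within 2021. Both libraries numbered 1 belong to the other batch, so their value cannot separate pairing from batch. The block with the replicate number replaces the batch term, and its results rest on a pairing not supported within 2021.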

Additional observations from a re-analysis of the deposited data

How the results depend on the processing

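Alternatives were DESeq2 size factors, upper quartile scaling, TMM without mitochondrially encoded genes, no filter, a mean of at least 1 CPM, DESeq2, limma voom, no batch or line term, the replicate block, the 4 libraries of 2021 alone, and each library left out in turn; counts below 0 and of members without overlap under leave-outs were added after the data were examined. The nuclear members called lower numbered 4, against 2 with upper quartile scaling and 1 with no batch term, and 3 with the replicate block, where 70 of 81 stayed below 0; over the leave-outs they numbered 1 to 5. The nuclear median of -0.17 ranged over the leave-outs from -0.27 (without control replicate 1) to -0.12, and the mitochondrial median of 0.04 from -0.26 to 0.40. Members without overlap numbered 21 to 42 (25.9% to 51.9%) over the leave-outs, where the share of all genes was 12.7% to 20.2%. The nuclear members higher in 2021 numbered 2, against 4 with upper quartile scaling, 4 with no filter, 1 with limma voom and 0 with no line term, and 0 to 4 over the leave-outs. Those lower in 2021 numbered 16, against 7 with no line term and 2 to 21 over the leave-outs; the mitochondrial count of 13 became 5 to 13. Without resistant replicate 1 or control replicate 1, only 1 library of 2020 enters the fit. The cause of these changes was not tested. No called value reversed, and of 797 line differences (resistant minus control) of named members under an alternative 772 kept their side of the threshold, 55 of them uncalled with the other sign, 19 lost the call and 6 gained it. ATP5MC2 was called with no filter (adjusted p = 0.0386). The replicate block, whose pairing was not supported within 2021, changed no other call than those of NDUFC1, NDUFC2 and COX7B2 among named members. Counts were low for MT-ND6, with 10 counts in control replicate 2, and for COX7B2, with at most 42 in a library.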
